A study of Homo sapiens with 12 samples.

Results

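The genes of the cytoplasmic ribosomal proteins were taken from the arrays by symbol. A gene was a member when a probe set carried its symbol alone and that symbol was RPL or RPS followed by a number with the usual letter endings, or RPLP0, RPLP1, RPLP2 or RPSA. This gave 59 genes with 120 probe sets, each gene being read by its brightest probe set. Of these 59 genes, 57 passed the filter on low values and were tested among 13882 genes, and RPL36A and RPL3L did not pass it. The members hold 21 genes of the small 40S subunit and 38 genes of the large 60S subunit, of which 21 and 36 were tested.

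The 12 arrays held RNA of the lung adenocarcinoma cell lines CL1-5 and CL1-0, both human, of which CL1-5 is known as the more invasive. The groups were CL1-5 under a direct-current electric field of 300 mV/mm, CL1-5 without a field, CL1-0 under the same field and CL1-0 without a field, with 3 arrays each that the labels call biological replicates. All cells stood for 2 h in serum-free medium in a microfluidic chip and were then detached with trypsin, so serum withdrawal and detachment were shared by every group. Nothing in the labels says that replicates came from separate thaws of a line, so p-values measure the spread between these arrays only. Values are the deposited linear signals on the log2 scale. Differences are log2 fold changes, given with their standard error (SE) from limma over all tested genes, and a gene was called at a Benjamini-Hochberg adjusted p of 0.05.

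A ribosome is built from ribosomal RNA and one copy of most ribosomal proteins, and the small subunit decodes the message while the large subunit joins the amino acids. The messages of these proteins are among the most abundant in dividing cells. Many of them start with a C followed by a run of pyrimidines, the 5′ terminal oligopyrimidine (TOP) tract, through which the kinase complex mTORC1 and the protein LARP1 control their translation. LARP1 also stabilises such messages.

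The tract was read from the RefSeq promoter windows of GRCh38.p14, each with 250 bases before and 50 bases after an annotated start. Of the 59 members, 51 had windows, 59 windows in all, and 8 genes had none. A C at the annotated start followed by at least 4 pyrimidines on the sense strand stood in 35 of the 59 windows (59.3%), each of a different gene, against 4.07% of the 35116 windows of all genes. The starts printed here belong to some of the genes whose differences between the lines are described further on, and to some paralogs and partner genes. They show 15 bases on each side of the annotated start, with the tract in capitals. RPL7L1 and RPS29, also named further on, have no tract at their annotated start and are not printed. RPS9, a 40S protein, lies at chr19:54200843-54200872 on the plus strand, RPL38, a 60S protein, at chr17:74203663-74203692 on the plus strand, and RPL12, a 60S protein near the stalk, at chr9:127451392-127451421 on the minus strand. RPL34 lies at chr4:108620561-108620590 on the plus strand, and its other annotated start, at chr4:108620614-108620643, has no tract and is not printed. RPL22 lies at chr1:6199581-6199610 and its paralog RPL22L1 at chr3:170870181-170870210, both on the minus strand. RPS27 lies at chr1:153990747-153990776 on the plus strand and its paralog RPS27L at chr15:63157463-63157492 on the minus strand, and RPL10L lies at chr14:46651767-46651796 on the minus strand.
RPS9: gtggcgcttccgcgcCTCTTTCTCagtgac
RPL38: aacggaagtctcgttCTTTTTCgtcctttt
RPL12: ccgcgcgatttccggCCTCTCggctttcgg
RPL34: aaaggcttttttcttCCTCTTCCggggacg
RPL22: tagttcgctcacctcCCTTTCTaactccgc
RPL22L1: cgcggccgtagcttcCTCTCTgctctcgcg
RPS27: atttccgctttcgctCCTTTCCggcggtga
RPS27L: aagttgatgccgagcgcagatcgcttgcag
RPL10L: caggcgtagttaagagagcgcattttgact
The tract stands at the annotated start of RPL22 and of its paralog RPL22L1. It stands at the start of RPS27 and not at that of RPS27L, a gene induced by p53, nor at that of RPL10L, a paralog of RPL10 used in the testis. A start without the tract here is only a start at this annotated base, and 16 of the 51 genes had none in any window, among them RPL3, RPL6, RPL9, RPS4X and RPS7.

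**Figure D1:**
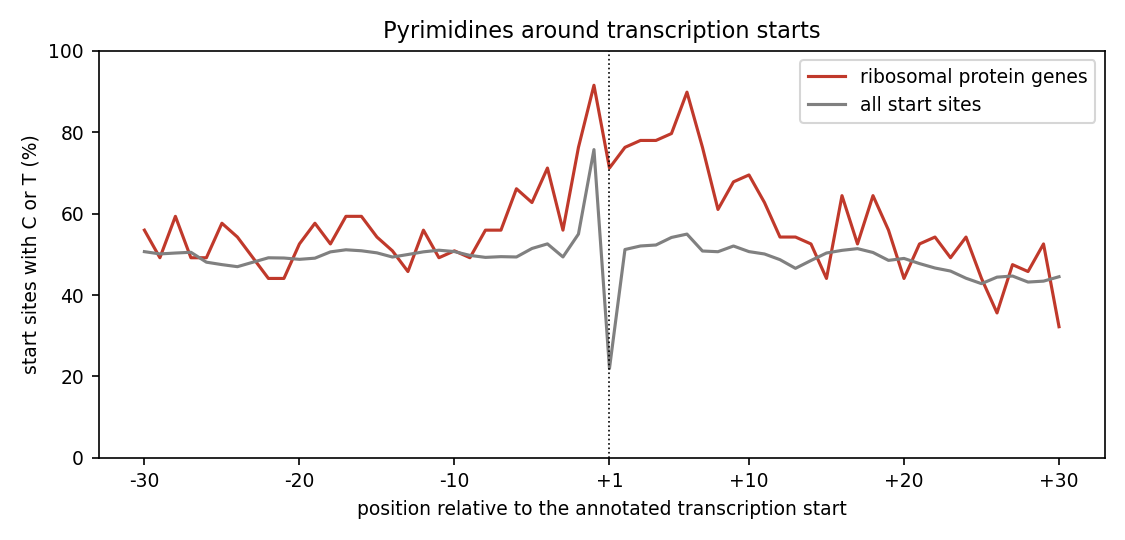
Share of annotated start sites with C or T (y axis, percent) at each base around the start (x axis, bases relative to the start at +1), for the 59 windows of the ribosomal protein genes in red and for the 35116 windows of all genes in grey. At +1 grey falls to 21.9%, since most starts hold a purine there, and red stands at 71.2%. Red stays above grey to +14 and crosses it several times after that.

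Other motifs were searched on both strands of the same 300-base windows. CCGGAAG, the core bound by ETS family factors such as GABP, stood in 39.0% of the member windows and in 10.3% of all windows. CTTTCC stood in 42.4% of the member windows and in 26.3% of all windows. TATAAA, the TATA box, stood in 8.47% of the member windows and in 11.5% of all windows. These matches describe the windows and were not tied to any difference on the arrays.

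The probe sets of the members sat at the upper end of the intensity range. The mean over the 12 arrays was at least 14 on the log2 scale for 49 of the 57 tested members, and 48 had signals above those of 99% of the tested genes. The other 8 members lay lower, and the first 4 of them were dim: RPL10L at 6.87, RPLP2 at 7.66, RPL27A at 9.53, RPL39L at 10.26, RPL22L1 at 12.34, RPS27L at 12.99, RPL26L1 at 13.04 and RPL7L1 at 13.58. For RPLP2, an acidic stalk protein, and for RPL27A, this says only that the probe set with a single symbol was dim. RefSeq lists 84 protein-coding genes that fit the symbol rule, and 15 of those that are not members occur only in probe sets with several symbols. The stalk protein RPLP0, the laminin receptor gene RPSA, and RPL5 and RPL23, which bind MDM2, were not members for want of a probe set with a single symbol. Of the 59 probe sets used, 14 end in _x_at and 29 in _s_at, endings that mark probes matching several transcripts, so paralogs and the many processed pseudogenes may add to their signal.

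The 4 replicate 1 arrays stood apart before any comparison. The control probe sets for dap, a bacterial transcript spiked into samples for labelling, read 7.02 to 17.7 there and 906 to 1224 on the other 8 arrays. Those for 18S ribosomal RNA read 29.99 to 92.7 there and 2983 to 4649 on the others. Every group thus had 1 array that lacked these signals and 2 that showed them. Among the markers, the epithelial keratin KRT18 averaged 14.20 in CL1-5 under the field, 14.03 in CL1-5 without field, 13.31 in CL1-0 under the field and 12.69 in CL1-0 without field. The cadherin gene CDH1, from the same epithelial list, went the other way, at 5.90 in CL1-5 and 9.51 in CL1-0 under the field. KRT8, KRT19, KRT7 and EPCAM were also on that list and are not given here. The T cell gene CD3E was at 5.74 in CL1-5 and 5.92 in CL1-0 under the field, near the array medians. The lung lineage genes NKX2-1, SFTPB and SFTPC averaged 4.43 to 7.66 in all groups, so the label of lung origin had little signal from them. Of the 4 leukocyte markers 1 passed the filter, CD3E, and of the 3 endothelial ones 1, PECAM1, at 8.84 in CL1-5 and 6.90 in CL1-0 under the field. Of the 3 fibroblast markers 2 passed, COL1A1 at 7.58 and 8.12 and PDGFRB at 4.40 and 4.42 in the same groups. Their part in the differences between the lines was not tested.

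The level of the members as a group followed the array more than the group label. The median over the 57 members was 15.92, 15.16 and 15.09 in replicates 1, 2 and 3 of CL1-5 under the field and 15.40, 14.94 and 14.97 in CL1-5 without field. It was 15.24, 15.20 and 15.20 in CL1-0 under the field and 15.38, 15.04 and 15.16 in CL1-0 without field. Replicate 1 was the highest array of every group, and replicate 1 of CL1-5 under the field was the highest of all 12. That array held the highest value of 44 of the 57 members, and their brightest probe sets took 5.77% of its total signal, against 3.51% to 4.56% on the other 11 arrays. Of the 57 members, 32 were higher on all 4 replicate 1 arrays than on all 8 others. RPS25, RPL27A, RPL10L and RPS27L were lower on all 4 replicate 1 arrays than on all 8 others. Such counts were made for the members alone, so whether other genes separate alike was not tested. After quantile normalization, which gives every array the same distribution of signals, the 12 medians lay between 15.17 and 15.27. Because the members fill the top of that distribution, the method sets most of their common level equal by construction.

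**Figure D2:**
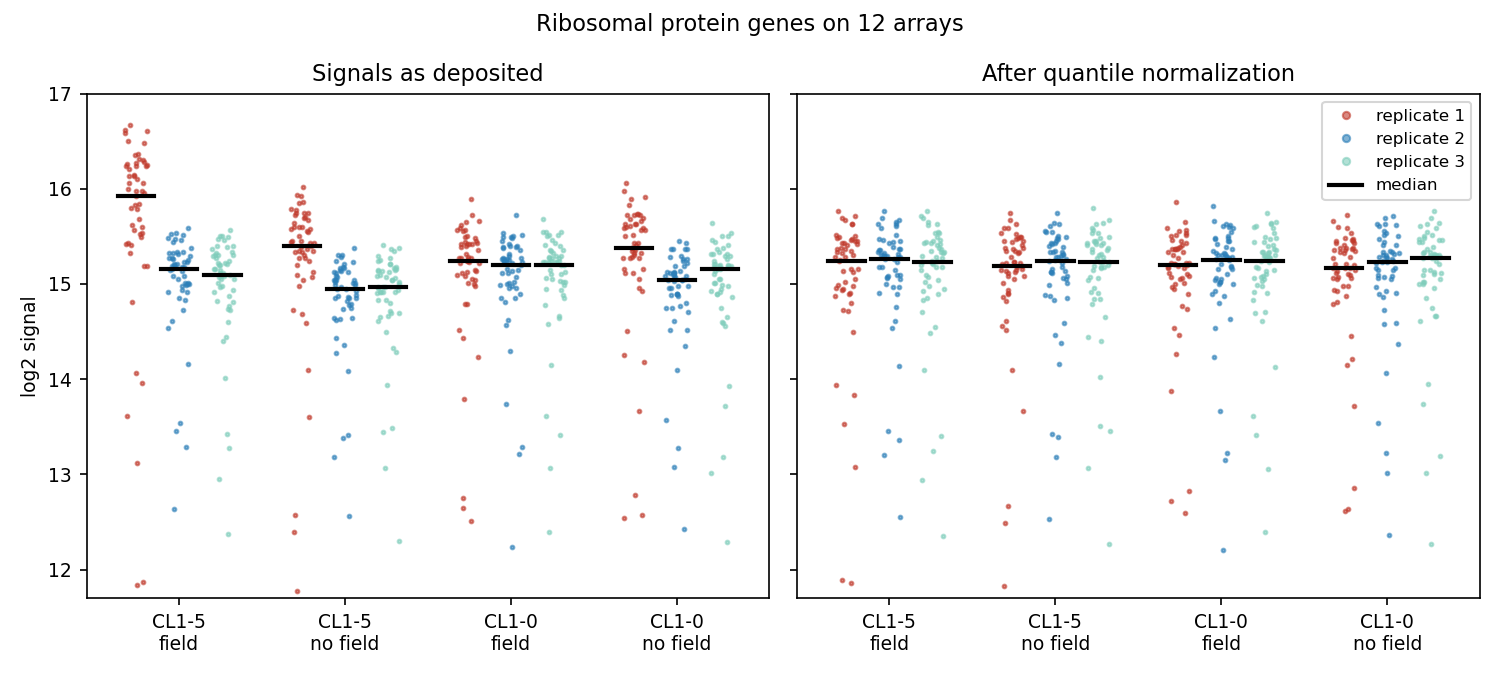
Log2 signal (y axis) of each tested ribosomal protein gene on the 12 arrays, as deposited on the left and after quantile normalization on the right, with a dot per gene, a colour per replicate and a black bar at the array median. The bar of CL1-5 under the field, replicate 1, stands at 15.92 on the left and is level with the others on the right, and 4 dim members (RPL10L, RPLP2, RPL27A and RPL39L) lie below the axis.

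The first question was how the field acts on these genes in CL1-5. No member was called, 0 of 57, against 0% of all genes tested by limma, and no member had an unadjusted p under 0.05, against 258 of all genes. The median difference of the members was 0.25, with 52 of 57 above 0, beside −0.01 for all genes. It was 0.02, with 37 of 57 above 0, without replicate 1 of CL1-5 under the field, and 0.02, with 32 above 0, after quantile normalization. On the arrays with the poly-A signal alone it was 0.17, with 52 above 0. The 40S members had a median of 0.29 and the 60S members one of 0.23, beside 0.01 and 0.04 after quantile normalization. By replicate pair the median was 0.50, 0.20 and 0.13 as deposited, and 0.02, 0.02 and 0.00 after quantile normalization. With the replicate number as a block 0 members were called and 19 had an unadjusted limma p under 0.05. The count of all genes under the same block is not given here, so the 19 cannot be read as a result about the members.

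Of the 10 members with the smallest p in this comparison, 3 are given by array. RPL31, a 60S protein at the exit tunnel, read 16.14, 15.46 and 15.47 in CL1-5 under the field and 15.58, 15.17 and 15.27 without field. Replicate 1 was the highest of each group and the groups overlapped. The difference was 0.35 ± 0.19 (SE, n = 3 each, limma adjusted p = 1) and 0.06 ± 0.10 after quantile normalization. RPL38, which in mice is needed for the translation of a subset of Hox messages, read 15.50, 15.01 and 14.97 under the field and 14.98, 14.85 and 14.83 without field. Replicate 3 under the field lay just inside the no-field range and the other field arrays above it. The difference was 0.27 ± 0.15 as deposited (SE, limma adjusted p = 1) and 0.04 ± 0.11 after quantile normalization. RPS9 read 15.19, 14.83 and 14.73 under the field and 14.73, 14.64 and 14.69 without field, with no overlap and a difference of 0.23 ± 0.14 (SE, limma adjusted p = 1). It was 0.10 without replicate 1 of CL1-5 under the field, and 0.02 ± 0.11 after quantile normalization, when the groups overlapped. RPL37, with 0.36, and RPL29, with 0.37, followed, then RPL8 with 0.34, RPL19 with 0.33, the S6 kinase substrate RPS6 with 0.33, RPL35 with 0.37 and RPS4X with 0.36. After quantile normalization these 7 stood between 0.02 and 0.14. RPL6, a 60S protein chosen after its values were seen, read 15.19, 15.23 and 15.15 under the field and 15.05, 15.02 and 15.08 without field. The groups did not overlap, as for RPS9 and no other member as deposited, and replicate 1 did not stand apart. The share of all genes without such overlap was not computed. The difference was 0.14 ± 0.10 (SE, limma adjusted p = 1), 0.15 without replicate 1 of CL1-5 under the field, and −0.07 ± 0.18 after quantile normalization, when the groups overlapped.

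In CL1-0 the field gave no call either, 0 of 57 members against 0% of all genes, with 0 members and 133 of all genes at an unadjusted limma p under 0.05. The median of the members was 0.02, with 40 of 57 above 0, and −0.04 with arrays centred on their median, so its sign depended on the scaling. The pairs differed in direction. Replicate pair 1 had a median of −0.15 with 7 members above 0, pair 2 one of 0.16 with 55 above 0 and pair 3 one of 0.06 with 49 above 0. In CL1-5 all 3 pairs were above 0 for most members, and 42 members had the pattern of 3 positive pairs in CL1-5 beside a negative pair 1 and positive pairs 2 and 3 in CL1-0. The member medians of the arrays had that pattern too, so these members do not count as separate cases. The share of all genes with it was not computed. Quantile normalization left pair medians of 0.01, 0.03 and 0.00 in CL1-0.

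**Figure D3:**
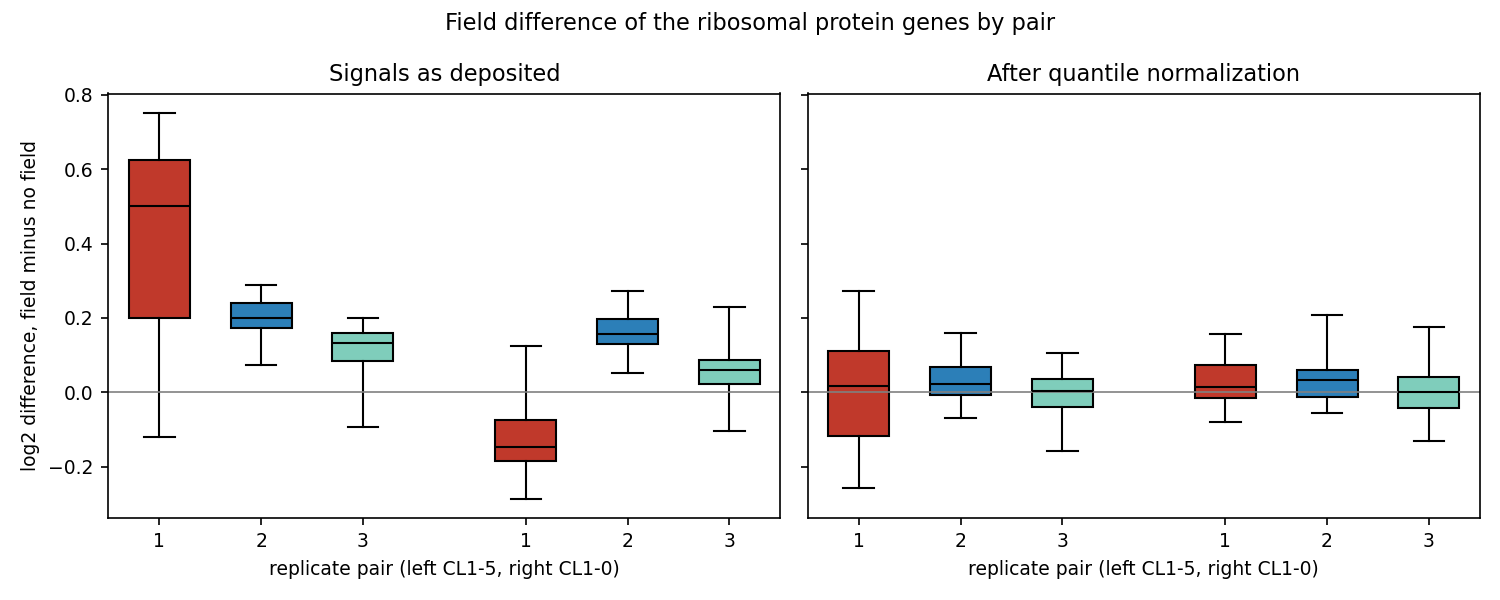
Log2 difference between field and no field (y axis) of the 57 members in each replicate pair (x axis), CL1-5 on the left of each panel and CL1-0 on the right, as deposited and after quantile normalization. Boxes span the quartiles with the median as a line, and whiskers reach the percentiles 5 and 95. Pair 1 stands at 0.50 in CL1-5 and at −0.15 in CL1-0 on the left panel, and all pairs are close to 0 on the right.

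The CL1-0 members with the smallest p began with RPLP2, which pairs with RPLP1 in the stalk. It read 8.17, 8.03 and 7.64 under the field and 7.62, 7.34 and 7.80 without field, with 1 field array inside the no-field range, a difference of 0.36 ± 0.28 (SE, n = 3 each, limma adjusted p = 1). RPL36, a 60S protein, read 14.23, 14.29 and 14.15 under the field and 14.18, 14.09 and 13.92 without field, a difference of 0.16 ± 0.13 (limma adjusted p = 1). RPL26L1, a paralog of RPL26, differed by 0.19 ± 0.22, RPL39 by 0.13 ± 0.17, and RPS25, a 40S protein used by viral internal ribosome entry sites, by 0.20 ± 0.27.

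The difference between the field responses, CL1-5 minus CL1-0, was tested in the same fit. It gave 0 of 57 members against 0% of all genes, with 0 members and 150 of all genes at an unadjusted limma p under 0.05. The median was 0.23 with 50 members above 0, −0.01 with 25 above 0 without replicate 1 of CL1-5 under the field, and −0.01 with 28 above 0 after quantile normalization. By pair it was 0.59, 0.04 and 0.08 as deposited. The smallest p belonged to RPLP2, with −0.61 ± 0.39 (limma adjusted p = 1), and the next to RPL10L, with −1.33 ± 1.05.

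The second question was how the lines differ. Without a field 0 of 57 members were called, against 18% of all genes tested, and 0 members had an unadjusted limma p under 0.05, against 4099 of all genes. The median of CL1-5 over CL1-0 was −0.08, with 11 members above 0, beside −0.03 for all genes, and −0.01 after quantile normalization. Under the field 0 of 57 members were called, against 19.4% of all genes, and 1 member, RPS9, had an unadjusted p under 0.05, against 4343 of all genes. There the median was 0.16 as deposited, with 42 members above 0, and −0.02 after quantile normalization, with 24 above 0. Without replicate 1 of CL1-5 under the field it was −0.10, with 13 above 0. The median pooled SD between replicates was 0.31 for the members and 0.46 for all genes, and 0.09 and 0.46 after quantile normalization. By replicate pair the member medians were −0.00, −0.08 and −0.16 without field, and 0.62, −0.05 and −0.07 under the field.

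Some members were called under other settings, and each count is given with the share of all genes called under the same setting. Quantile normalization gave 1 of 57 without field, RPL30, against 18.2% of all genes, and 1 of 57 under the field, RPL12, against 19.4% of all genes. The replicate block gave 2 of 57 under the field, RPS9 and RPL10L, against 38.1% of all genes, and 0 without field. The poly-A batch as a block gave 3 of 57 under the field, against 37.5% of all genes, with RPS9 and RPL12 higher and RPL10L lower in CL1-5. Averaging all probe sets of each gene gave 2 of 57 without field, RPL31 and RPL36, against 17.5% of all genes, and 1 of 57 under the field, RPL31, against 18.3% of all genes, all lower in CL1-5. The replicate block and quantile normalization together gave 5 of 57 without field, against 35.8% of all genes, with RPS9, RPL12, RPL30 and RPS29 higher and RPL38 lower in CL1-5. Under the field both gave 9 of 57, against 38.4% of all genes, with 4 higher and 5 lower. The arrays with the poly-A signal alone gave 5 of 57 without field, against 30.9% of all genes, and all 5 (RPL11, RPL22, RPL34, RPL38 and RPS4X) were lower in CL1-5. Under the field they gave 3 of 57, against 31.8% of all genes, with RPS27L higher and RPL10L and RPL38 lower. After quantile normalization those arrays gave 5 of 57 without field, against 31.8% of all genes, with RPS9 and RPL30 higher and RPL22, RPL34 and RPL38 lower. Under the field they gave 5 of 57, against 32.3% of all genes, with RPL12 and RPS27L higher and RPL7L1, RPL10L and RPL38 lower. RPL38 was in each of these lists of the poly-A arrays.

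RPS9, RPL12 and RPL30 were on the higher side in CL1-5. RPS9 read 15.19, 14.83 and 14.73 in CL1-5 and 14.43, 14.62 and 14.64 in CL1-0 under the field. Without field it read 14.73, 14.64 and 14.69 in CL1-5 and 14.51, 14.51 and 14.56 in CL1-0. In neither condition did the lines overlap. The difference was 0.35 ± 0.14 under the field (SE, n = 3 each, limma adjusted p = 0.103, with 0.0424 under the replicate block), against 0.16 ± 0.14 without field (adjusted p = 0.506). After quantile normalization it was 0.23 ± 0.11 and 0.25 ± 0.11, with limma adjusted p of 0.173 and 0.145. A dimmer RPS9 probe set had the same sign in both conditions, with 0.90 under the field and 0.64 without field.

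RPL12 read 16.24, 15.21 and 15.12 in CL1-5 and 15.01, 15.02 and 15.06 in CL1-0 under the field. All 3 CL1-5 arrays were above the CL1-0 range, replicate 1 by the most. The difference was 0.49 ± 0.26 (SE, limma adjusted p = 0.219), 0.13 without replicate 1 of CL1-5 under the field, and 0.28 ± 0.08 after quantile normalization (adjusted p = 0.0276). Its other probe set gave 0.48 under the field. RPL30, whose protein also binds the selenocysteine element of selenoprotein messages, read 15.75, 15.15 and 15.13 in CL1-5 and 15.42, 15.04 and 15.14 in CL1-0 without field, and the lines overlapped. The difference was 0.14 ± 0.25 as deposited (limma adjusted p = 0.783) and 0.23 ± 0.07 after quantile normalization (adjusted p = 0.029), when the lines did not overlap. Under the field it was 0.38 ± 0.25 as deposited and 0.18 ± 0.07 after quantile normalization (adjusted p = 0.329 and 0.069).

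RPL38, RPL34 and RPL22 were on the lower side in CL1-5 without field. RPL38 read 14.98, 14.85 and 14.83 in CL1-5 and 15.27, 15.11 and 15.20 in CL1-0, without overlap. The difference was −0.31 ± 0.15 (SE, n = 3 each, limma adjusted p = 0.194), −0.23 ± 0.11 after quantile normalization (adjusted p = 0.208) and −0.32 on the arrays with the poly-A signal (adjusted p = 0.00931). Under the field the RPL38 difference was −0.06 ± 0.15, with 15.50, 15.01 and 14.97 in CL1-5 and 15.12, 15.26 and 15.28 in CL1-0. Replicate 1 of CL1-5 was above all CL1-0 arrays there, and replicates 2 and 3 were below them. The dimmer RPL38 probe sets gave −0.59 and −0.45 under the field, and −0.41 and −0.22 without field. RPL34 read 15.24, 14.43 and 14.49 in CL1-5 and 15.27, 14.75 and 14.92 in CL1-0. Replicates 2 and 3 of CL1-5 were below all CL1-0 arrays and replicate 1 was not. The difference was −0.26 ± 0.24 over all arrays (limma adjusted p = 0.539) and −0.37 on the arrays with the poly-A signal (adjusted p = 0.00958). Under the field it was −0.05 over all arrays, with 15.33, 14.72 and 14.77 in CL1-5 and 15.09, 14.89 and 14.99 in CL1-0. RPL22, whose protein binds the Epstein-Barr virus RNA EBER1, read 15.13, 14.64 and 14.61 in CL1-5 and 15.12, 14.90 and 14.99 in CL1-0. Its difference was −0.21 ± 0.21 (limma adjusted p = 0.582) and −0.32 on the arrays with the poly-A signal (adjusted p = 0.0193). The other RPL22 probe sets gave −0.17, −0.17, −0.47 and −0.40 without field. Under the field the brightest gave 0.06 and the others 0.02, 0.01, −0.97 and −0.63, in the same order. RPL14, RPL9, RPL39, RPL11 and RPL31 had differences of −0.23, −0.18, −0.18, −0.15 and −0.18 without field, with limma adjusted p of 0.399 to 0.605.

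**Figure D4:**
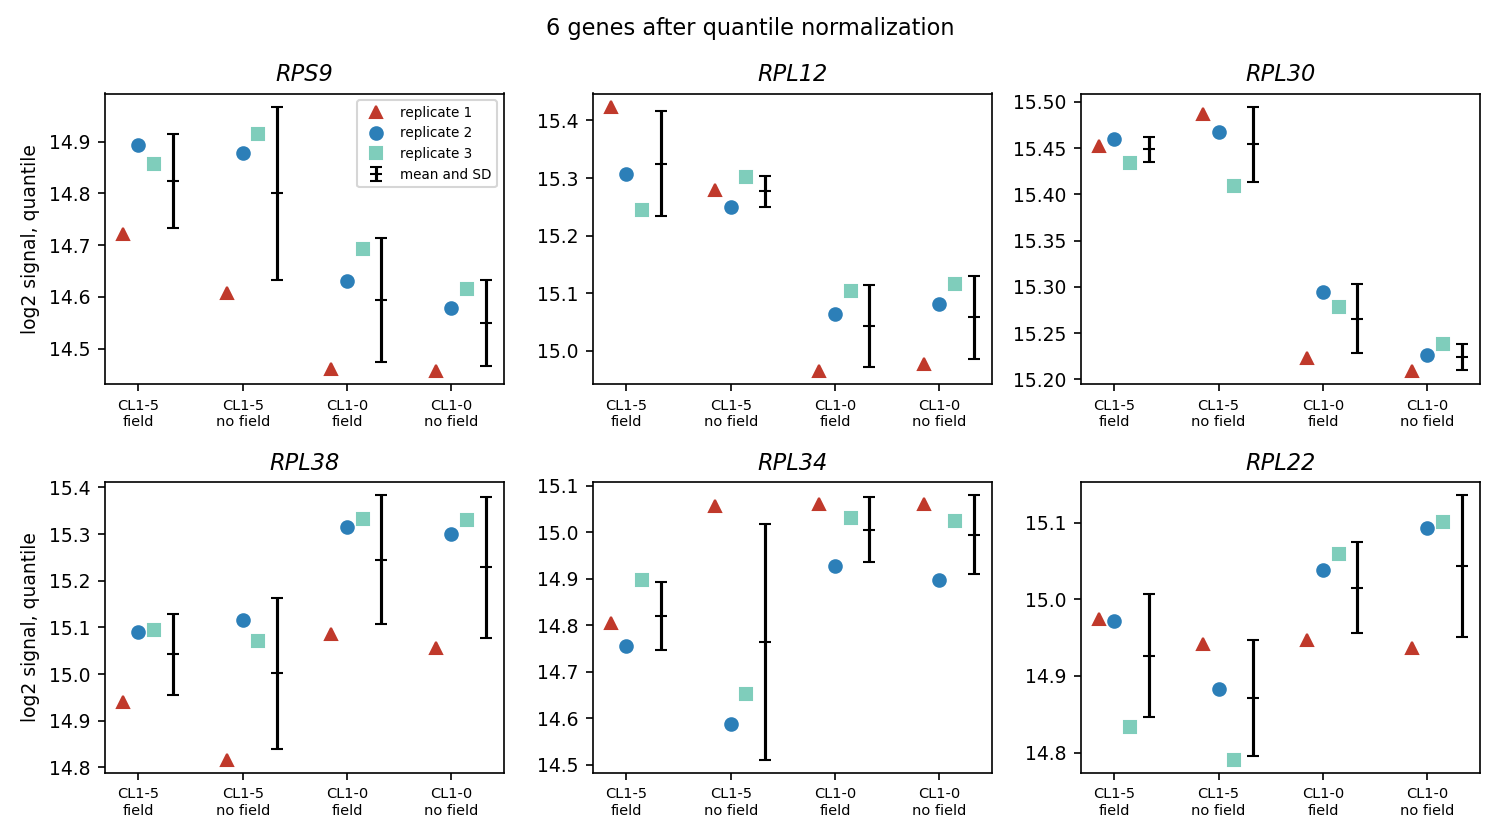
Log2 signal after quantile normalization (y axis, a different range in each panel) of 6 genes, with a mark per array and the mean with its SD beside each group. RPS9, RPL12 and RPL30 sit higher in the CL1-5 groups and RPL38, RPL34 and RPL22 mostly lower, with overlap of single arrays in RPS9, RPL38, RPL34 and RPL22.

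Among the paralogs, RPL10L read 3.94, 7.08 and 6.82 in CL1-5 and 6.70, 8.06 and 7.86 in CL1-0 under the field. The replicate 1 arrays were the lowest of their groups, and the lines overlapped. The difference was −1.59 ± 0.74 (SE, n = 3 each, limma adjusted p = 0.165, with 0.0144 under the replicate block), or −0.59 without replicate 1 of CL1-5 under the field. RPL7L1, a paralog of RPL7 with a role in ribosome assembly, read 13.61, 13.45 and 13.28 in CL1-5 and 13.79, 13.74 and 13.61 in CL1-0 under the field. Its difference was −0.27 ± 0.14 (limma adjusted p = 0.227) and −0.33 ± 0.13 after quantile normalization (adjusted p = 0.096), beside 0.20 ± 0.21 as deposited for its partner RPL7. RPL7 read 16.24, 15.53 and 15.51 in CL1-5 and 15.62, 15.49 and 15.54 in CL1-0 under the field. Only replicate 1 of CL1-5 lay outside the CL1-0 range of RPL7. RPS27L read 11.87, 13.54 and 13.42 in CL1-5 and 12.51, 13.22 and 13.07 in CL1-0 under the field, and replicate 1 was the lowest array of each line. The difference was 0.01 ± 0.43 over all arrays (limma adjusted p = 0.99) and 0.34 on the arrays with the poly-A signal (adjusted p = 0.035). Its partner RPS27 differed by 0.19 ± 0.25 over all arrays, with 16.00, 15.20 and 15.22 in CL1-5 and 15.42, 15.20 and 15.23 in CL1-0. Only replicate 1 of CL1-5 lay outside the CL1-0 range of RPS27. Under the field RPL22L1 differed by −0.15 ± 0.25 and RPL39L by −0.16 ± 0.26, beside 0.06 ± 0.21 for RPL22 and −0.08 ± 0.17 for RPL39. RPL26L1 differed by −0.03 ± 0.22, and its partner RPL26 and the RPL10L partner RPL10 were not members.

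Dimmer probe sets of a few members gave larger differences than the brightest ones. In a fit of all 31890 probe sets past the filter, 111 belonged to the members. Without field 2 of them were called, both lower in CL1-5, against 12.1% of all probe sets, and under the field 1 was called, also lower, against 13.4% of all probe sets. After quantile normalization 4 were called without field, against 12% of all probe sets, with RPL30 higher and RPL31, RPL36 and RPS21 lower in CL1-5. The RPL36 one averaged only 6.14 as deposited. Under the field 3 were called after quantile normalization, against 13.3% of all probe sets, with both RPL12 probe sets higher and the RPL31 one lower. For RPL31 the called probe set, whose ending _at marks probes meant for 1 transcript, read 9.49, 8.57 and 10.05 in CL1-5 and 11.11, 10.90 and 11.89 in CL1-0 under the field, without overlap. Without field it read 9.68, 8.78 and 9.06 in CL1-5 and 10.83, 10.75 and 11.74 in CL1-0. Its difference was −1.93 ± 0.42 in both conditions (limma adjusted p = 0.0107 under the field and 0.0109 without). The brightest RPL31 probe set, which ends in _x_at, gave 0.15 under the field and −0.18 without, and the remaining one, which ends in _s_at, gave −1.33 and −1.04 and was not called. For RPS21 the called probe set, also ending in _at, averaged 12.01 ± 0.46 in CL1-5 and 12.68 ± 0.31 in CL1-0 under the field (SD, n = 3), and 11.65 ± 0.38 and 12.64 ± 0.29 without field. Its difference was −0.67 ± 0.28 under the field (limma adjusted p = 0.152) and −0.99 ± 0.28 without (adjusted p = 0.0401), beside 0.20 and −0.10 for its brightest probe set. Which transcripts each of these probe sets reads was not tested.

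**Figure D5:**
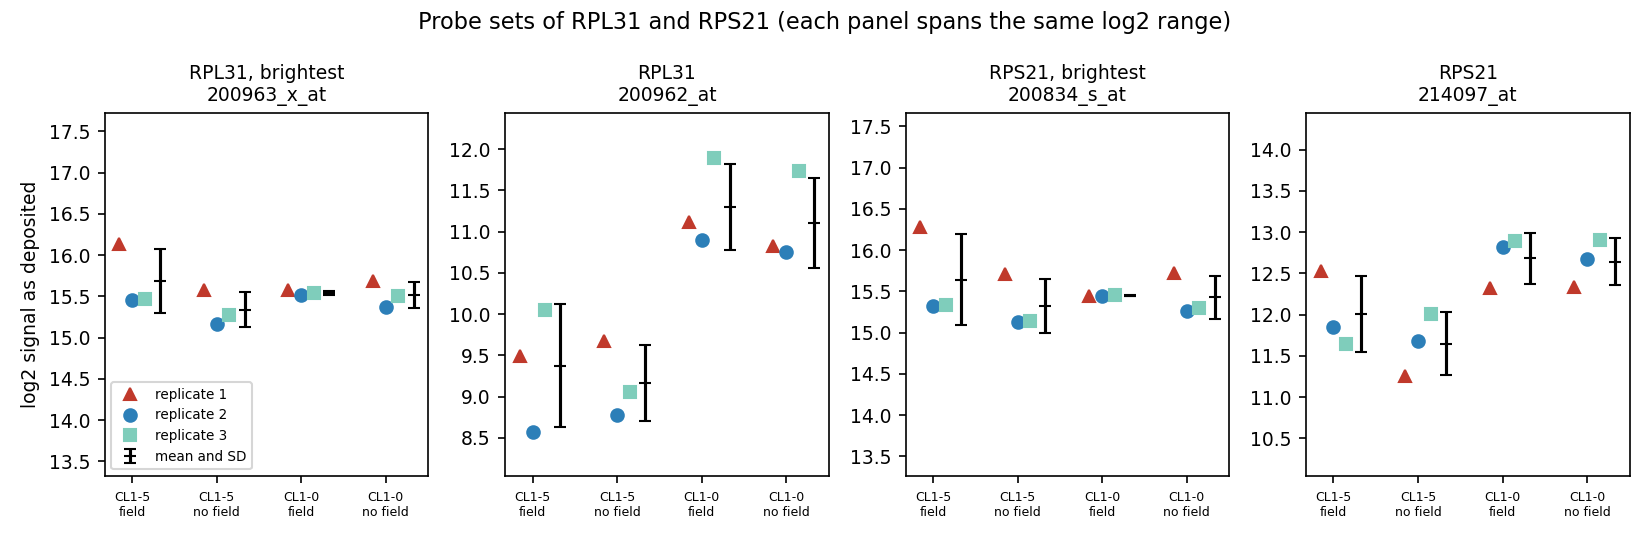
Log2 signal as deposited (y axis, each panel spanning the same number of log2 units) of the brightest and a dimmer probe set of RPL31 and RPS21, with a mark per array and the mean with its SD beside each group. The dimmer RPL31 probe set lies lower on all 6 CL1-5 arrays than on all 6 CL1-0 arrays, while the lines overlap in the brightest one.

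The tract at the start was set against the same differences. The 34 tested members with the tract had a median of 0.28 for the field in CL1-5, the 16 with windows and no tract one of 0.21, and the 7 without a window one of 0.29. After quantile normalization these medians were 0.03, −0.03 and 0.03. For the lines without field they were −0.08 with the tract, −0.12 without it and −0.02 without a window, and for the lines under the field 0.16, 0.10 and 0.29. These medians describe the 3 sets and carry no test.

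Other genes known for TOP messages, most of them translation factors, were listed beside the members. Of 15 symbols listed, 11 were tested, and 0 were called for the field in either line by limma, with 0 at an unadjusted p under 0.05. In CL1-5 all 11 were above 0 under the field, with a median of 0.19, beside 0.04 after quantile normalization and 0.00 without replicate 1 of CL1-5 under the field. Between the lines 1 of the 11 was called without field, where 18% of all genes were called, and 0 under the field. The called gene was HNRNPA1, which makes a splicing factor, with a difference of −0.73 ± 0.22 (SE, limma adjusted p = 0.0352). EEF1D, a subunit of the elongation factor exchange complex, was at 14.76 in CL1-5 and 14.20 in CL1-0 under the field, a difference of 0.56 ± 0.20 (adjusted p = 0.07), and 0.47 ± 0.10 after quantile normalization (adjusted p = 0.00616). The ribosomal proteins outside the symbol rule, FAU and RPL36AL, differed by 0.30 ± 0.16 and 0.14 ± 0.34 for the field in CL1-5.

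Of 15 genes of mTORC1 signalling and TOP control, 0 were called for the field by limma in either line, with 1 in CL1-5 and 0 in CL1-0 at an unadjusted p under 0.05. Between the lines without field 2 were called higher and 2 lower in CL1-5, where 18% of all genes were called, and whether the list differs from that share was not tested. The mTORC1 inhibitor gene DDIT4 was higher by 0.99 ± 0.31 (SE, limma adjusted p = 0.0458) and the translation repressor gene EIF4EBP2 by 0.80 ± 0.23 (adjusted p = 0.0308). The S6 kinase gene RPS6KB1 fell by 1.21 ± 0.22 (adjusted p = 0.00217) and RHEB, the GTPase that activates mTORC1, by 0.79 ± 0.15 (adjusted p = 0.0033). Under the field DDIT4 was higher by 1.35 ± 0.31 and RPS6KB1 and RHEB lower, and LARP1 itself differed by −0.07 ± 0.13 without field (adjusted p = 0.783).

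The mitochondrial ribosomal proteins, which form the separate ribosome of that organelle, are a similar set in size and kind. Of their 75 tested genes, 0 were called for the field in either line by limma, with 0 at an unadjusted p under 0.05. Without field 5 were called higher and 7 lower in CL1-5, where 18% of all genes were called, and under the field 6 higher and 5 lower, where 19.4% of all genes were called. MRPS28 averaged 12.83 in CL1-5 and 11.06 in CL1-0 under the field, a difference of 1.76 ± 0.27 (SE, limma adjusted p = 0.000726). MRPL52 was higher in CL1-5 by 1.21 ± 0.27 and MRPL40 lower by −0.78 ± 0.18 (adjusted p = 0.00773 and 0.00892). Their median for the field in CL1-5 was 0.01, beside 0.25 for the cytoplasmic members, and whether the lists differ was not tested. The cytoplasmic median depended on replicate 1 of CL1-5 under the field and on the scaling, as given above. The lists were not matched for signal level. Of 10 listed genes mutated in Diamond-Blackfan anaemia, 6 were tested members and 0 were called by limma over all arrays as deposited, although RPL11, which binds MDM2, was called lower in CL1-5 without field on the arrays with the poly-A signal (−0.23, adjusted p = 0.0444).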

How the data were processed

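The 12 Affymetrix arrays of 54675 probe sets were deposited as linear intensity values made with MAS5, per the submitters' processing notes. No software version is given in the sources used here. Trimmed array means are equal, so no further scaling was applied.

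Deposited intensity values were floored at 1, which touched 3691 of them, and put on the log2 scale. Of the probe sets, 41091 carry 1 symbol and no control, 1801 several and 11777 none, in the platform annotation. Each gene was read by its single-symbol probe set with the highest mean, if above its array's median on at least 3 arrays, which left 13882 genes. Groups were compared with limma 3.58.1 (lmFit and eBayes with trend, 4 group means, 12 arrays) in R 4.3.3, with Benjamini-Hochberg adjustment over all genes at 0.05. With data.table (1.17.8), pandas (2.3.3), numpy (2.4.6) and matplotlib (3.10.9) the tables and figures were made. The number of arrays limits the precision: the median SE of a difference was 0.24 for the members and 0.37 for all genes.

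Over genes, deviations from the group means correlated between same-numbered arrays at 0.609, 0.346 and 0.363 in CL1-0 and at 0.551, 0.423 and 0.187 in CL1-5, each above 0.1, so replicate numbers were taken as pairs, a reading that comes from the data and not from the labels. Arrays numbered 2 and 3 also correlated with each other, and replicate 3 of CL1-5 without field did so more with replicate 2 under the field (0.284) than with replicate 3, so beyond replicate 1 the pairing is weak. The fit has no block, and the block is given where it changes a call. Replicate number and the spike-in batch of replicate 1 cannot be told apart in that check.

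Members and gene lists were chosen with earlier results of these data known. Named are, per comparison, the 10 members with the smallest p, besides dim members, the paralogs and partners, and up to 4 genes per other list; only some are printed, and members called under an alternative alone, dimmer probe sets and the start sequences were picked after their values were seen. RefSeq promoter windows gave the sequences. Alternatives were the scaling, the filter, the pseudocount (5.05), the probe set choice, the block, the spike-in batch and each array left out. On simulated data for the field in CL1-5, with 13882 genes and 5 runs, 16.2 of 100 genes changed by 2-fold were recovered on average. Of 100 genes changed by 4-fold 53.4 were recovered, with 3.4 false calls. The changed genes were drawn from all 13882 with independent noise, so these rates are not those of the members.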

Additional observations from a re-analysis of the deposited data

How the results depend on the processing

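Across 26 other settings, 253 of 265 values of the group results (counts called and medians) kept their reading, and the other 12 were counts between the lines. Without field the count of 0 became 1 with quantile normalization, 2 with the mean of probe sets, and 5 each with the replicate block and quantile normalization together, with only arrays with poly-A signal, and with those arrays after quantile normalization. Under the field it became 1 with quantile normalization, 1 with the mean of probe sets (RPL31, and RPL31 with RPL36 without field), 2 with the replicate block, 9 with the block and quantile normalization, 3 with the poly-A batch as a block, 3 with only arrays with poly-A signal and 5 with those arrays after quantile normalization. The replicate block alone changed no other count, and the cause of these changes was not tested. The shares of all genes called under these settings stand beside the member counts in the results above. With each array left out in turn the counts stayed at 0, and the medians ran from 0.02 to 0.43 for the field in CL1-5, −0.05 to 0.14 for the field in CL1-0, −0.25 to 0.03 for the lines without field, −0.10 to 0.32 under the field and −0.01 to 0.43 for the difference between responses. Medians count as kept while they moved by less than the spread between arrays, which is wide here, so their sign is not stable. Of 1293 values of single genes, 1266 kept their side of the threshold, 27 were newly called and 0 reversed. No member was called over all arrays as deposited, so no call could reverse, and 13 uncalled values turned in sign. The settings with the poly-A arrays and quantile normalization together, and with all probe sets, were chosen after seeing the data. The poly-A arrays leave 2 arrays a group. Probe sets with several symbols were not used, and signals near the top of the range may be compressed, which was not tested.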

Other observations

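RPL36A and RPL3L, which did not pass the filter on low values, averaged 4.22 ± 0.59 and 2.98 ± 0.86 on the log2 scale in CL1-5 under the field and 3.24 ± 1.75 and 3.05 ± 2.39 in CL1-5 without field (SD, n = 3 each). In CL1-0 they averaged 4.68 ± 2.53 and 2.59 ± 0.41 under the field and 5.44 ± 1.52 and 1.71 ± 1.22 without field. RPL3L is the paralog of RPL3 used in skeletal muscle and heart.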
